A study of Rattus norvegicus with 52 samples.

Results

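Interferon-stimulated genes are the antiviral program that cells switch on when interferon binds its receptor. They were followed here in RNA of sorted rat mammary epithelial cells as a list of 38 genes chosen by symbol. Of these, 35 were among the 17356 genes in the count tables. Rows for *Xaf1*, *Herc6* and *Ifi44l* were not analysed here. *Tap2*, a subunit of the peptide transporter, had at most 0.699 normalized CPM (counts scaled to a common library total) at 9 weeks and was removed by the filter on low counts, which left 34 members tested in every comparison.

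Type I and type III interferons act through Jak kinases on a complex of Stat proteins and Irf9 that binds a promoter sequence called the interferon-stimulated response element (ISRE). Type II interferon acts through the receptor chains Ifngr1 and Ifngr2 and a Stat dimer that binds the gamma-activated site (GAS). The products of these genes sense viral RNA (Ddx58, Ifih1, Dhx58), block translation or assembly of viruses (the Ifit, Oas and Mx families, Rsad2, Bst2), attach or remove the ubiquitin-like protein Isg15 (Usp18 removes it), load peptides on MHC class I (Tap1, Tap2) or draw leukocytes (Cxcl10). Many of them have a basal level in epithelia without infection.

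RNA was measured in 48 libraries of female rats. At 9 weeks, virgin ACI rats with a deletion in both copies of *Cdkn1b*, the gene of the cell cycle inhibitor p27 (*Cdkn1b*-/-, KO), and *Cdkn1b*+/+ (WT) rats gave 16 libraries, 2 for each genotype of basal cells (Cd24+ and Cd29 high), luminal progenitors binding the lectin PNA (PNA+), luminal progenitors carrying the integrin Cd49b (Cd49b+), and mature luminal cells negative for both. Basal and luminal cells of ACI rats labelled 4 weeks gave 11 libraries (WT 3 and 3, KO 2 basal and 3 luminal) and those labelled 6 weeks gave 9 (WT 3 basal and 2 luminal, KO 2 and 2). A further 12 libraries came from basal and luminal cells of ACI and Brown Norway (BN) rats, labelled Control or treated with estradiol (E2). There were 2 libraries for each ACI group and 1 for each BN group, whose labels carry 2 animal numbers. According to the methods, implants that were empty or held E2 were placed at 9 weeks of age, for 3 weeks of release. The luminal libraries are labelled CD49b_PNA_LUM, with no sign for either marker, and are called luminal below. The labels give no age or *Cdkn1b* genotype for the E2 experiment. According to the methods, the knockout is a small frame-shifting germline deletion made by CRISPR-Cas9 in outbred Sprague-Dawley zygotes and backcrossed to ACI. The deletion is thus in every cell type of the rat, and its transcript can remain. Glands for sorting came from crosses at an early (N1) and a late (N6) backcross generation, and the labels used here do not say which. Donor sequence can therefore remain near the gene and, in early crosses, elsewhere in the genome. WT and KO rats came from crosses of heterozygotes.

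Levels below are CPM divided by the TMM scaling factor of the library (normalized CPM). They depend on transcript length, so levels are compared between libraries and not between genes. Counts on genes ranged from 7985619 to 33859550 per library. In these bulk samples, fewer cells of a type and less RNA per cell cannot be told apart. *Cdkn1b* was at 1.80 to 4.61 normalized CPM in the KO libraries of 9 weeks and at 6.14 to 15.7 in the WT libraries, with no overlap. At 4 weeks, the library labelled KO luminal 1 had 17.4 normalized CPM of *Cdkn1b*, within the range of the WT luminal libraries (13.96 to 18.8), while the other KO libraries had 4.85 to 11.8. At 6 weeks, the library labelled WT basal 3 had 3.27 normalized CPM of *Cdkn1b*, under both KO basal libraries, and the library labelled KO luminal 2 had 37.9, within the range of the WT luminal libraries. The 2 libraries of 6 weeks also stood apart in markers of other cell types. Counts of members called or apart between genotypes at 4 and 6 weeks are given with and without these 3 libraries. At 9 weeks, hormone-sensing luminal markers (*Esr1*, *Pgr*, *Foxa1*, *Prlr*), which mark mature luminal cells, were lower in the WT libraries labelled mature luminal than in the WT progenitor libraries, so progenitor and mature luminal below name the gates as labelled.

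Many promoters of the members hold the core of the ISRE, the element through which type I and type III interferons act. The members were chosen by name as interferon-stimulated genes, so an excess of this core is not independent of that choice. Of the 38 members, 30 matched a promoter of the RefSeq table (build GRCr8, 250 bases before to 50 bases after the annotated gene start), and *Isg15*, *Ifit1*, *Ifit2*, *Mx2*, *Usp18*, *Ddx58*, *Dhx58* and *Adar* did not. The ISRE core GAAANNGAA, searched on both strands, was in 20 of the 30 promoters (66.7%), against 9.71% of the 33469 promoters of the table. It was in the 200 bases before the start in 18 members and occurred more than once in 7. With 1 further A (GAAANNGAAA) the share of the members remained 20 of 30, and that of all promoters was 3.92%. The GAS core TTCNNNGAA, which reads the same on both strands, was in 7 of 30 (23.3%) against 8.87% of all promoters. *Irf1*, *Irf8* and *Irf9*, transcription factors of the pathway, had a GAS core and no ISRE core, and 7 members had neither in this window.

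The promoters of 5 members are shown because the comparisons below turn on these genes. *Bst2* and *Oas1a* code for effectors with less RNA in every KO than in every WT progenitor library, and each has 2 overlapping ISRE cores and a GAS core. *Ifngr1*, which was higher in KO progenitors, has neither motif. *Gbp2* and *Irf1* differed between cell types, and each has 1 core, of ISRE in *Gbp2* and of GAS in *Irf1*. They lie at chr16:18254918-18255217 on the minus strand (*Bst2*), chr12:41330216-41330515 on the plus strand (*Oas1a*), chr1:16152660-16152959 on the plus strand (*Ifngr1*), chr2:234005477-234005776 on the plus strand (*Gbp2*) and chr10:38417685-38417984 on the plus strand (*Irf1*) of GRCr8, and the sequences are those of RefSeq, written 5′ to 3′ along the gene. Capitals mark the ISRE and GAS cores, which run into each other in *Bst2*.
Bst2: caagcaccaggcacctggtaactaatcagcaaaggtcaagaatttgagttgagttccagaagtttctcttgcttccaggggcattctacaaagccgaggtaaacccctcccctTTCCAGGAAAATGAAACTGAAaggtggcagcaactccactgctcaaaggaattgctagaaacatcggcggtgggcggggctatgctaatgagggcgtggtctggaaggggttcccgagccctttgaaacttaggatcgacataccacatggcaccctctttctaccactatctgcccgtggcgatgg
Oas1a: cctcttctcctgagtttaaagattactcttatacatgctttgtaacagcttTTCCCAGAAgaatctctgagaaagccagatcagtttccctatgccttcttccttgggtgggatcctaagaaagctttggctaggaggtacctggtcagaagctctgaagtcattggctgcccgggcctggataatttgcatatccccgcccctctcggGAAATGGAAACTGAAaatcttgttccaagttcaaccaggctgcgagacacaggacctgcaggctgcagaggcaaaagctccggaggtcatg
Ifngr1: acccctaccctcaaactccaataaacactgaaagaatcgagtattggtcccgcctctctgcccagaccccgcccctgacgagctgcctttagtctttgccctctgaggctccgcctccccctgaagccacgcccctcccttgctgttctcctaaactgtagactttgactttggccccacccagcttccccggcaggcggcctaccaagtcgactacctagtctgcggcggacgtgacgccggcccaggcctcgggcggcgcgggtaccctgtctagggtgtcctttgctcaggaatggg
Gbp2: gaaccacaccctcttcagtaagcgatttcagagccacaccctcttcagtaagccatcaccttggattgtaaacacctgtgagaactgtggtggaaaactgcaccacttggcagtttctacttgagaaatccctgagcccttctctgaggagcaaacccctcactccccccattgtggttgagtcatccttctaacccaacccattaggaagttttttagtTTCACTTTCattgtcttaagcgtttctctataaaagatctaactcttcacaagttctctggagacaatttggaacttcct
Irf1: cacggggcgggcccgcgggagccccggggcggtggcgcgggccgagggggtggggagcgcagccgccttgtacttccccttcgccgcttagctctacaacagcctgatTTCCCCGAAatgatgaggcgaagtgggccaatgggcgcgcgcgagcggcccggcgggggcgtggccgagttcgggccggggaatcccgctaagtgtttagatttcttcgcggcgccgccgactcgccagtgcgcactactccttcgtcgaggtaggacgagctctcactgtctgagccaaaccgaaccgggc

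**Figure D1:**
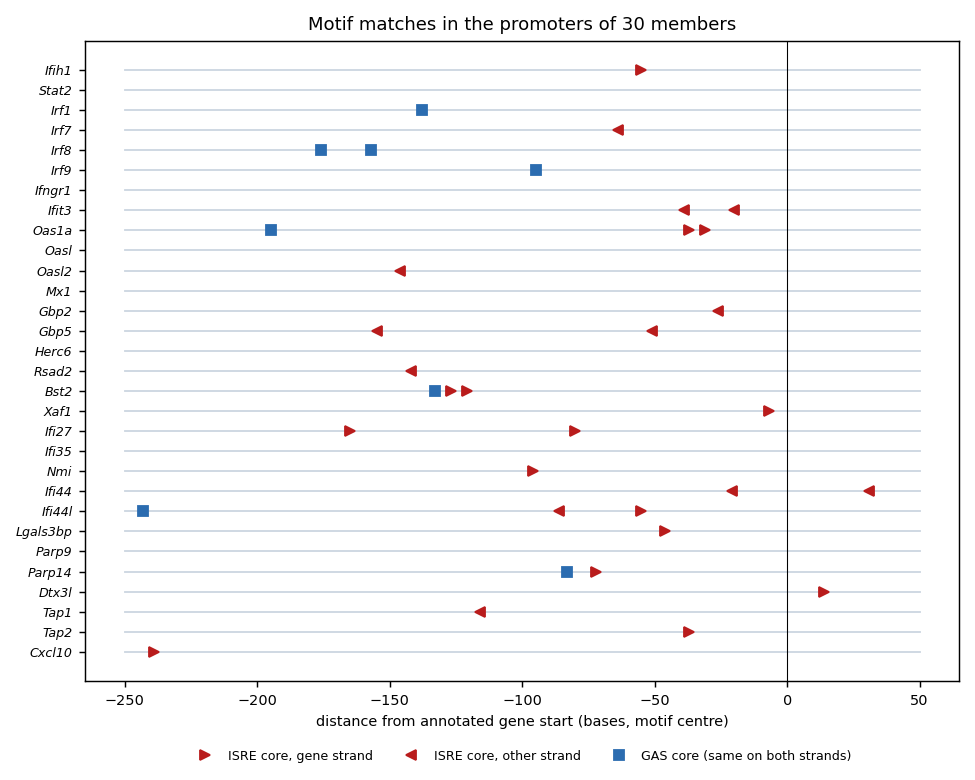
Positions of motif matches in the promoters of 30 members, 1 row per gene. The horizontal axis is the distance of the motif centre from the annotated gene start in bases, triangles are ISRE cores pointing along the strand of the match, and squares are GAS cores. Most ISRE cores lie in the 200 bases before the start (18 of the 20 members with one), and the rows without a symbol are the 7 members with neither motif.

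The first comparison asked whether loss of p27 changes these genes in the luminal progenitors (LP, PNA+ and Cd49b+ libraries together), the population the study follows. *Mx2*, a dynamin-like antiviral GTPase, and *Bst2*, which tethers budding virus to the cell surface, were lower in KO progenitors, and *Ifngr1*, the ligand-binding chain of the interferon gamma receptor, was higher. *Mx2* was at 17.2 and 37.1 normalized CPM in the WT PNA+ libraries, 18.9 and 32.9 in the WT Cd49b+ libraries, 4.88 and 5.31 in the KO PNA+ libraries, and 6.01 and 4.96 in the KO Cd49b+ libraries. The lowest WT library thus had more than any KO library. *Bst2* had 41.0, 35.8, 42.7 and 25.9 normalized CPM in the WT libraries (PNA+ 1 and 2, then Cd49b+ 1 and 2) and 16.3, 15.9, 15.4 and 20.1 in the KO libraries, in the same order. *Ifngr1* had 93.6, 92.3, 102 and 98.3 normalized CPM in WT and 206, 163, 187 and 127 in KO. Neither gene overlapped between genotypes.

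The log2 fold change of KO against WT in LP was -2.33 for *Mx2* (standard error, SE, 0.28, adjusted p = 0.00105), -1.10 for *Bst2* (SE 0.24, adjusted p = 0.0272) and 0.82 for *Ifngr1* (SE 0.19, adjusted p = 0.0347, the quasi-likelihood test of edgeR, adjusted by the method of Benjamini and Hochberg across 12809 genes). With 1 member called higher, the background was 2.12% of all genes tested, and with 2 called lower it was 1.29%. Over the 34 members the median log2 fold change was -0.39, with 22 below 0, while over all genes tested the median was 0.03 and 47% lay below 0. At an unadjusted p under 0.05 there were 13 members, against 18.3% of all genes. Libraries with the same number in 1 genotype shared deviations, so the 4 progenitor libraries per genotype do not count as 4 separate samples. With PNA+ and Cd49b+ libraries of a number summed, 0 members passed (*Mx2* -2.34, adjusted p = 0.144), and 0 passed in PNA+ or in Cd49b+ libraries alone. With any 1 of the 8 libraries left out *Mx2* kept its call. *Bst2* and *Ifngr1* both lost theirs without KO Cd49b+ 1, KO PNA+ 1, KO PNA+ 2, WT Cd49b+ 1, WT PNA+ 1 or WT PNA+ 2, which left 1 member. *Ifngr1* also lost its call without WT Cd49b+ 2, and without KO Cd49b+ 2 there were 8 members called.

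More members lay apart between genotypes than passed the test. In LP, 7 of 34 had every KO library below every WT library (*Mx2*, *Bst2*, *Isg15*, *Oas1a*, *Oasl2*, *Lgals3bp* and *Ifi44*), which 5.74% of all genes did, and 2 had every KO library above (*Ifngr1* and *Tap1*), which 7.43% did. Without the TMM factor, which was lower in most KO libraries, the counts were 12 below (14.7% of all genes) and 1 above (3.04%). *Isg15*, the ubiquitin-like modifier, was at 19.8 to 21.7 normalized CPM in the WT and 8.74 to 14.0 in the KO progenitors, a log2 fold change of -0.97 (SE 0.25, adjusted p = 0.0509 by edgeR). *Oas1a*, which makes the second messenger that activates RNase L, had 9.19 to 10.1 in WT and 3.47 to 6.72 in KO (log2 fold change -1.11, adjusted p = 0.0829 by edgeR). *Usp18*, the protease that takes Isg15 off its targets, had 2.81 to 5.86 in WT and 0.932 to 3.86 in KO, with overlap (log2 fold change -1.11, adjusted p = 0.203 by edgeR). These genes therefore missed the threshold in LP. Of the 7 members that lay below, 5 have a promoter sequence (*Bst2*, *Ifi44*, *Lgals3bp*, *Oas1a*, *Oasl2*) and all 5 of these hold an ISRE core, as do 20 of 30 members in all. *Mx2* and *Isg15* have no promoter sequence here. Of the 2 members above, 1 holds the core (*Tap1*). In mature luminal cells it was in 9 of 11 promoters of members below and 2 of 4 of those above. Among members called lower in basal cells than in LP it was in 8 of 13. A link between motif and genotype difference was not tested.

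By role, the effectors and sensors had mostly lower values in KO progenitors, while *Ifngr1*, *Tap1* and *Cxcl10* had higher values, and most of these differences missed the threshold. All 4 Mx and Gbp GTPases had a negative log2 fold change in LP (median -0.91, *Mx2* called), as did both Isg15 system genes (median -1.04), all 3 Oas genes (median -0.77) and all 3 RNA sensors (median -0.55). Of 8 other effectors 6 were negative (median -0.58, *Bst2* called). *Lgals3bp*, a secreted glycoprotein, was at 66.3, 43.2, 66.0 and 44.6 normalized CPM in the WT libraries (PNA+ 1 and 2, then Cd49b+ 1 and 2) and 25.3, 29.2, 22.3 and 41.2 in the KO libraries, which do not overlap (log2 fold change -0.90, adjusted p = 0.0844 by edgeR). *Irf7* was at 24.6, 63.5, 28.9 and 66.7 in WT and 18.2, 21.9, 18.2 and 48.5 in KO in the same order, which overlap (log2 fold change -0.78, adjusted p = 0.413 by edgeR). *Stat2*, the Stat protein specific to type I and III signalling, was at 41.2 to 45.4 in WT and 41.7 to 50.3 in KO, so its log2 fold change was 0.05. Of 5 transcription factors 3 were positive, of 3 Ifit genes 2 were, and of the 3 genes of the Parp9 complex *Parp9* (log2 fold change 0.27) and *Dtx3l* (0.30) were. In all 12 of 34 members were positive in LP.

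Markers of other cells were summed in the same libraries. Hormone-sensing luminal markers summed to 197 to 276 normalized CPM in WT LP and 95.7 to 131 in KO LP, without overlap, and 2 of the 4, *Foxa1* and *Prlr*, were called lower. In mature luminal cells the sum was 76.0 to 88.2 in WT and 39.6 to 114 in KO, which overlap. Luminal progenitor markers (*Kit*, *Elf5*, *Cd14*, *Aldh1a3*) summed to 347 to 966 in WT LP and 534 to 2049 in KO LP. Libraries labelled mature luminal had 730 to 2440 of them, which overlaps with LP. Within a number they had more than Cd49b+ and PNA+ in WT 1 (729.5 against 346.9 and 359.7), WT 2 (1702 against 965.6 and 954.1) and KO 1 (2440 against 1772 and 2049). In KO 2 the values were 933.1 against 534.3 and 936.5. The hormone-sensing list set the WT gates apart across both numbers. In WT both lists thus ran in the order opposite to the labels. Fibroblast markers summed to 514 to 1349 in WT LP and to 433, 977, 215 and 183 in KO LP (Cd49b+ 1 and 2, then PNA+ 1 and 2), and endothelial markers to 449.5 to 872 in WT and 355, 1070, 243 and 336 in KO. For both lists 3 of the 4 KO libraries were below every WT library, and KO Cd49b+ 2 was not. Leukocyte markers summed to 6.67 to 29.5 in WT and 12.8 to 15.6 in KO LP, with *Ptprc* at most 1.86 in any library of 9 weeks, and the sum of 12 myeloid markers, which include the epithelial *Cd14*, was 246 to 678 in WT and 460 to 1665 in KO. The part of these differences in the values of the members was not tested.

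**Figure D2:**
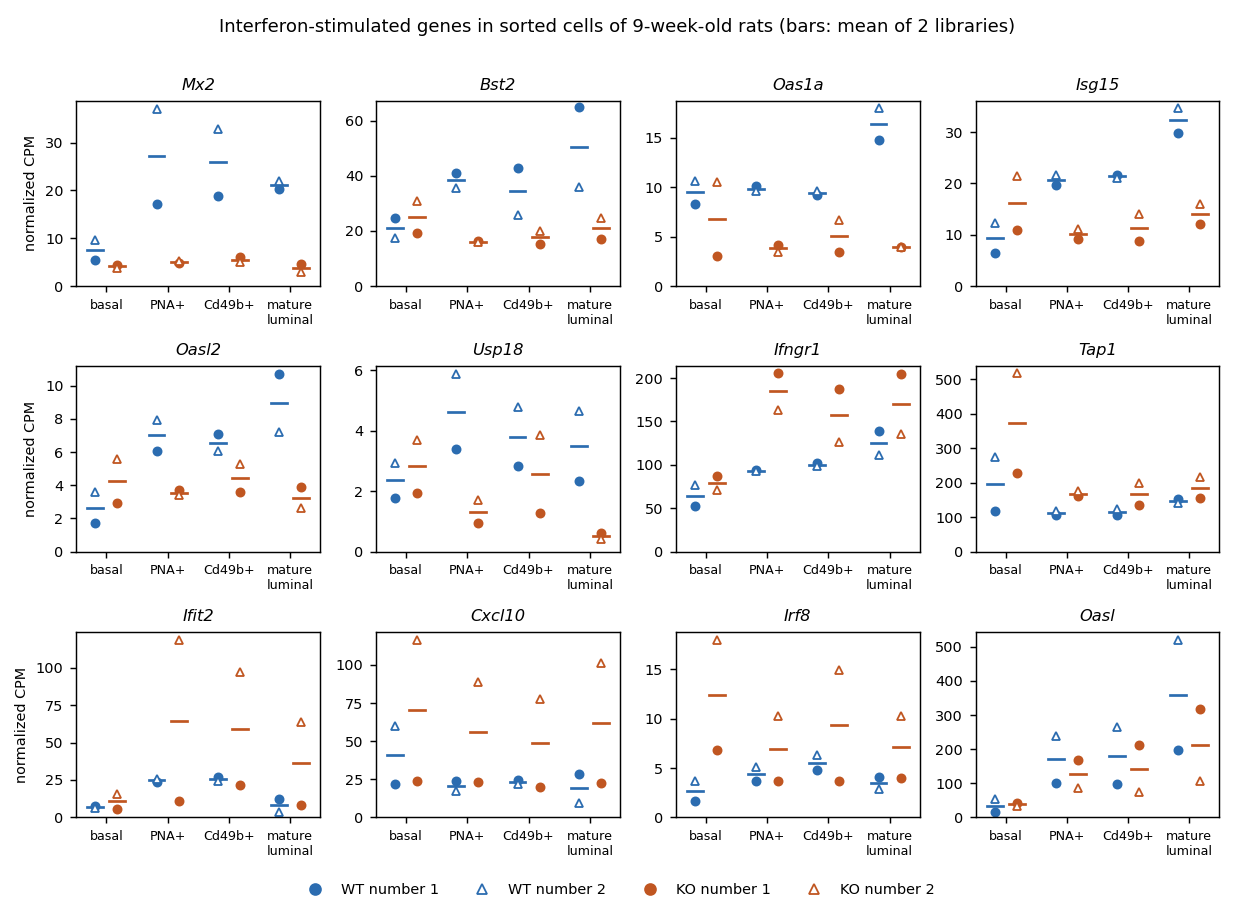
Normalized CPM of 12 members in the 16 libraries of 9 weeks, by population and genotype (blue WT, orange KO; filled circles are libraries numbered 1, open triangles those numbered 2, bars the mean of 2). Each vertical axis starts at 0. *Mx2* lies between 3.02 and 6.01 in every KO library and at 17.2 or more in every WT luminal library. *Cxcl10* and *Irf8* are high in the KO libraries numbered 2, and *Ifit2* is high in the luminal ones among them.

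In mature luminal cells, *Mx2* was again lower in KO rats. It was at 20.3 and 22.0 normalized CPM in WT and 4.60 and 3.02 in KO (log2 fold change -2.47, SE 0.41, adjusted p = 0.0340 by edgeR). This was the 1 member called, and 0.0312% of all genes tested were called lower. Leaving out any of the 4 libraries of mature luminal cells raised its adjusted p above the threshold, to 0.113 without KO 1, 0.313 without KO 2, 0.163 without WT 1 and 0.213 without WT 2, and fitted without the other populations it had an adjusted p of 0.873. *Usp18* had 2.34 and 4.64 normalized CPM in WT and 0.613 and 0.419 in KO (log2 fold change -2.75, SE 0.70, adjusted p = 0.246 by edgeR). *Oas1a* had 14.8 and 18.0 in WT and 3.98 and 3.95 in KO (log2 fold change -2.05, SE 0.47, adjusted p = 0.184 by edgeR). Both were apart between genotypes without passing the test.

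By role, 5 of the 10 groups of the list had lower values throughout in KO mature luminal cells. All 3 RNA sensors, all 3 Oas genes, all 4 Mx and Gbp GTPases, both Isg15 system genes tested and all 8 other effectors had a negative log2 fold change, none but *Mx2* past the threshold. Positive values were those of *Ifngr1*, *Tap1*, *Cxcl10*, *Parp9*, *Dtx3l*, *Ifit1*, *Ifit2*, *Irf8* and *Irf9*. Of the 34 members, 25 lay below 0, with a median of -0.49, against 46.9% of all genes and a median of 0.03. Every KO library was below every WT library for 16 members, beside 13.9% of all genes with 2 libraries against 2, and above for 4 (*Dtx3l*, *Irf9*, *Parp9*, *Tap1*), beside 15.7%. Without the TMM factor these counts were 19 (20.4% of all genes) and 2 (8.83%). *Parp9* and *Dtx3l*, partners in a complex of an ADP-ribosyltransferase and a ubiquitin ligase, start 1214 bases apart on opposite strands of chromosome 11. *Parp9* had 43.9 and 49.8 normalized CPM in WT and 75.9 and 58.7 in KO, and *Dtx3l* 10.5 and 10.5 in WT and 13.4 and 20.5 in KO.

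In basal cells, edgeR called 0 of 34 members between genotypes, with 0.0546% of all genes called, 5 members at an unadjusted p under 0.05 (9.09% of all genes) and 0 by DESeq2. The balance of signs was the opposite of that in luminal cells, with 24 members above 0 and a median of 0.23, against 50.2% and 0.00 over all genes. *Irf8*, a transcription factor best known from myeloid cells, was at 1.61 and 3.69 normalized CPM in WT and 6.85 and 18.0 in KO (log2 fold change 2.23, SE 0.73, adjusted p = 0.377 by edgeR). *Irf9*, the DNA-binding part of the complex at the ISRE, had 8.63 and 17.3 in WT and 20.6 and 39.2 in KO (log2 fold change 1.20, adjusted p = 0.376 by edgeR). All 5 transcription factors (median 0.55) and all 3 Ifit genes (median 0.64) had a positive log2 fold change in basal cells, and 3 of the 4 GTPases a negative one. *Isg15* had 6.35 and 12.2 in WT and 10.99 and 21.4 in KO, and *Mx2* 5.37 and 9.66 in WT and 4.44 and 3.76 in KO. *Irf8*, *Irf9* and *Ifit1* had every KO library above every WT library (20.1% of all genes did) and *Mx2* every KO library below (16.9%). Without the TMM factor the counts were 2 above (11.1% of all genes) and 5 below (30.7%). Leukocyte markers summed to 8.23 to 12.4 in WT basal libraries and 15.8 to 16.9 in KO, and myeloid markers to 61.8 to 218 in WT and 228 to 370 in KO. Their part in these values was not tested.

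The difference between populations was tested by itself. Between LP and basal cells, edgeR called the genotype difference of 0 members to differ (0% of all genes, 1 member by DESeq2). It gave an unadjusted p under 0.05 to 4 members, against 7.23% of all genes. The 4 were *Isg15* (difference in log2 fold change -1.77, SE 0.44), *Mx2* (-1.45, SE 0.48), *Oasl2* (-1.44, SE 0.51) and *Bst2* (-1.35, SE 0.42), with adjusted p from 0.469 to 0.591. Between LP and mature luminal cells edgeR called 0 (0% of all genes, 0 by DESeq2), with 0 at an unadjusted p under 0.05 (1.75% of all genes). Between PNA+ and Cd49b+ progenitors it called 0 (0% of all genes, 0 by DESeq2), with 1 at an unadjusted p under 0.05, *Ddx58* (3.05% of all genes). In that last comparison 28 of 34 members had a lower value in PNA+ cells, and the median log2 fold change was -0.14 against -0.01 over all genes.

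**Figure D3:**
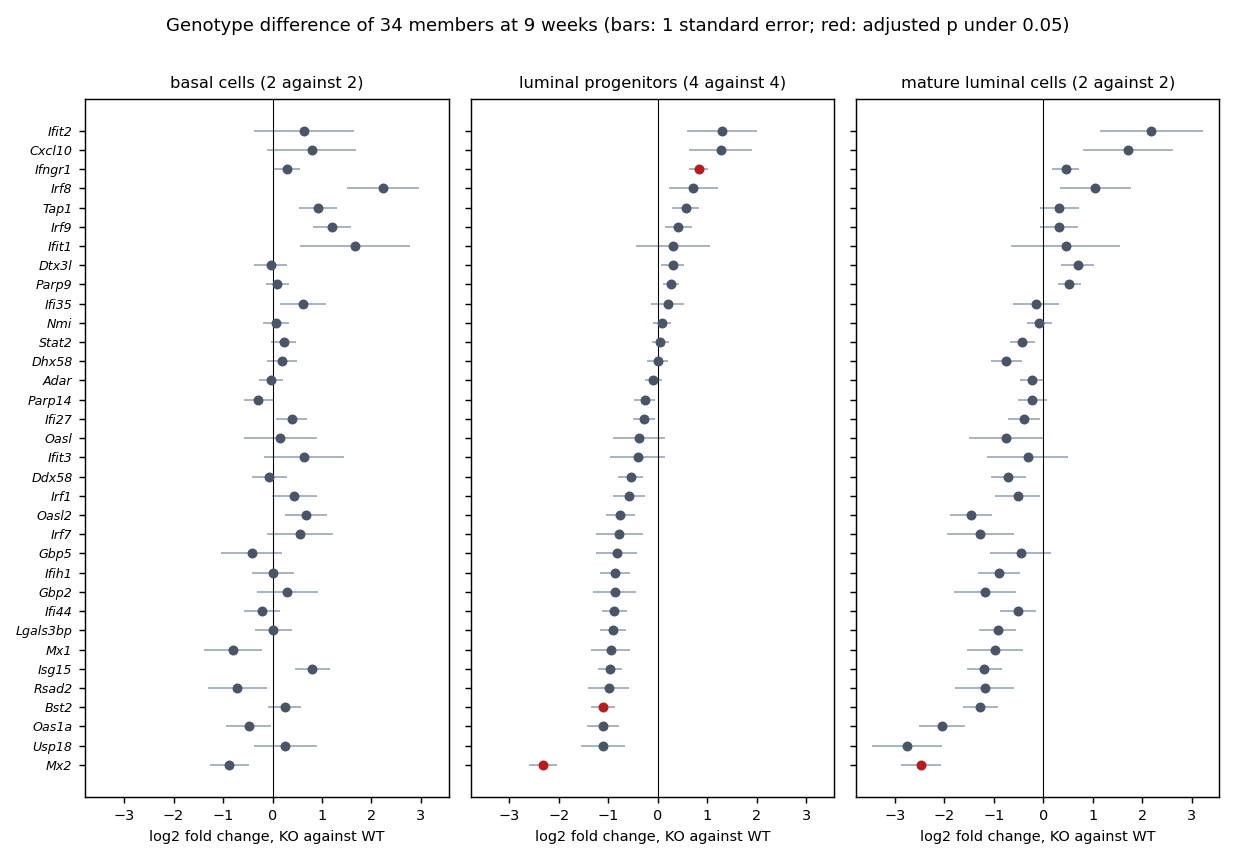
Log2 fold change of KO against WT for the 34 members tested in basal cells, luminal progenitors and mature luminal cells of 9 weeks, ordered by the value in progenitors. Points are edgeR estimates, bars 1 SE, and red points have an adjusted p under 0.05 (*Mx2*, *Bst2* and *Ifngr1* in progenitors, *Mx2* in mature luminal cells). The members lean to the left in both luminal panels, with 22 and 25 of 34 below 0, and to the right in basal cells, with 24 above 0.

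Some members differed between libraries numbered 1 and 2 within a genotype. *Cxcl10*, a chemokine for T cells, was at 77.6 to 116 normalized CPM in the 4 KO libraries numbered 2 and at 20.2 to 23.8 in the 4 KO libraries numbered 1. The WT libraries did not share this order in luminal cells. Without the TMM factor, WT 1 and 2 had 27.3 and 19.5 CPM in PNA+, 29.2 and 24.4 in Cd49b+ and 29.2 and 8.88 in mature luminal cells. In WT basal cells they had 24.8 and 63.5. *Ifit2*, which binds viral RNA, had 63.8 to 118 in the luminal KO libraries numbered 2 and 8.27 to 21.5 in those numbered 1, while the WT luminal libraries had 3.74 to 27.3. *Oasl*, an Oas relative without enzyme activity in its best known form, had 96.3 and 101 in WT progenitors numbered 1 and 238 and 265 in those numbered 2. In KO progenitors *Oasl* had 167 and 211 in number 1 and 86.3 and 73.0 in number 2, so the order of the numbers was the opposite. *Kit*, a receptor of progenitors and no member of the list, had the same order, with 58.7 to 63.0 in WT progenitors numbered 1, 254 to 262 in WT 2, 268 to 318 in KO 1 and 47.4 to 71.2 in KO 2. Differences of this kind enter the error of the genotype comparison. The median over members of the SD of log2 normalized CPM was 0.194 in WT and 0.351 in KO progenitors (n = 4 each).

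Populations were compared next, averaged over both genotypes. Basal cells had lower levels than luminal progenitors for 17 of 34 members, with 23% of all genes called lower, and higher levels for 3, with 27% called higher. The 10 with the largest decrease were *Rsad2*, *Ifit3*, *Ifit2*, *Ifih1*, *Oasl*, *Dtx3l*, *Parp14*, *Nmi*, *Mx2* and *Parp9*, and the 3 higher were *Tap1*, *Irf1* and *Ifi27*. *Rsad2* (viperin), which blocks viral replication through a modified nucleotide, had 20.6 to 75.9 normalized CPM in progenitors and 3.76 to 10.95 in basal cells (log2 fold change -2.43, SE 0.41, adjusted p = 0.000266 by edgeR). *Ifih1*, the sensor MDA5 for long double-stranded RNA, had 12.2 to 51.6 in progenitors and 4.78 to 6.49 in basal cells (log2 fold change -2.22, SE 0.29, adjusted p = 3.69e-05 by edgeR). *Dtx3l* had 18.6 to 34.6 in progenitors and 6.03 to 9.77 in basal cells (log2 fold change -1.69, adjusted p = 3.82e-05 by edgeR). None of the 3 overlapped between these populations, and each kept its call with any 1 library left out.

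In the other direction, *Tap1*, a subunit of the peptide transporter, had 119, 274, 228 and 518 normalized CPM in basal libraries (WT 1 and 2, then KO 1 and 2) and 106 to 200 in progenitors (log2 fold change 0.97, SE 0.23, adjusted p = 0.0033 by edgeR). *Irf1*, a transcription factor induced by interferon gamma, had 110, 146, 92.9 and 256 in the same basal libraries and 46.8 to 121 in progenitors (log2 fold change 0.80, SE 0.27, adjusted p = 0.025 by edgeR). *Ifi27*, a mitochondrial protein gene strongly induced by type I interferon, had 459 to 988 in basal cells and 371 to 601 in progenitors (log2 fold change 0.72, SE 0.19, adjusted p = 0.00702 by edgeR). All 3 overlapped. *Irf1* lost its call without KO basal 2 or WT basal 2, and *Ifi27* without WT basal 2. Endothelial markers summed to 188 to 633 normalized CPM in basal cells and 243 to 1070 in progenitors, and fibroblast markers to 511 to 3228 and 183 to 1349, and their part was not tested.

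Against mature luminal cells, basal cells had lower levels for 12 members (18.4% of all genes called lower) and a higher level for *Irf1* alone (20.4% called higher). *Oasl* had 199, 519, 319 and 106 normalized CPM in mature luminal cells and 15.0, 52.9, 41.9 and 33.7 in basal cells, each as WT 1 and 2 and KO 1 and 2 (log2 fold change -2.95, SE 0.56, adjusted p = 0.00106 by edgeR). *Rsad2* had 18.8, 50.3, 22.7 and 7.77 in the same mature luminal libraries (log2 fold change -1.76, adjusted p = 0.00539 by edgeR). *Ifih1* (-1.37), *Ifngr1* (-1.03), *Ifi35* (-0.90), *Isg15* (-0.80), *Nmi* (-0.78), *Ddx58* (-0.78), *Dtx3l* (-0.78) and *Parp14* (-0.64) followed in size of log2 fold change, with *Stat2* and *Adar* the smallest. *Irf1* had 87.3, 62.9, 40.1 and 64.6 in mature luminal cells (log2 fold change 1.25, SE 0.32, adjusted p = 0.00789 by edgeR). Without WT basal 1 the number called was 8 in place of 13. With the number of the library as a block within each genotype 22 members were called here and 24 between basal cells and progenitors, in place of 13 and 20.

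Progenitors had higher levels than mature luminal cells for 6 members (11.7% of all genes called higher) and lower levels for none at the threshold. *Ifit3*, which stabilizes Ifit1 on viral RNA, had 15.98, 41.6, 5.77 and 16.8 normalized CPM in PNA+ libraries (WT 1 and 2, then KO 1 and 2), 20.5, 39.4, 13.2 and 52.7 in Cd49b+ libraries, and 3.91, 7.28, 4.90 and 4.09 in mature luminal libraries. Its log2 fold change was 2.34 (SE 0.55, adjusted p = 0.00978 by edgeR). *Gbp2*, an interferon-inducible GTPase, had a log2 fold change of 1.39 (adjusted p = 0.0235 by edgeR), *Dtx3l* 0.91, *Ifih1* 0.84, *Parp9* 0.77 and *Parp14* 0.55. The 3 genes of the Parp9 complex were thus all higher in progenitors, *Parp9* with 77.0 to 123 normalized CPM against 43.9 to 75.9. Without KO mature luminal 2 the count was 2. With the library number as a block, 10 members were called, and 17 with the block within each genotype. Endothelial markers summed to 243 to 1070 in progenitors and 80.7 to 206 in mature luminal cells, and their part was not tested.

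Of 47 other genes of the pathway (ligands, receptors and kinases, regulators, nucleic acid sensors and antigen presentation), 37 were tested at 9 weeks. Between genotypes edgeR called 0 in basal cells (1 by DESeq2), 0 in LP (1 by DESeq2) and 0 in mature luminal cells (0 by DESeq2). It gave an unadjusted p under 0.05 to 2 in basal cells, 5 in LP and 0 in mature luminal cells, beside 9.09%, 18.3% and 7.15% of all genes. Of 9 antigen presentation genes tested, 9 had a positive log2 fold change in KO basal cells, and 7 and 8 a negative one in KO LP and KO mature luminal cells. In basal cells against progenitors 11 were higher and 11 lower, beside 27% and 23% of all genes. Against mature luminal cells 8 and 6 were, beside 20.4% and 18.4%, and in progenitors against mature luminal cells 6 and 4, beside 11.7% and 11.7%. Of 8 interferon genes listed, *Ifnk* (interferon kappa, known from keratinocytes) was the 1 that passed the filter on low counts. It had 58.6 and 30.2 normalized CPM in WT basal cells, 219 and 117 in KO basal cells, and 0.383 to 16.1 in luminal libraries. Its log2 fold change between basal cells and progenitors was 4.89 (SE 0.59, adjusted p = 2.1e-05 by edgeR), and between genotypes it was 1.92 in basal cells (SE 0.96, adjusted p = 0.581 by edgeR).

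**Figure D4:**
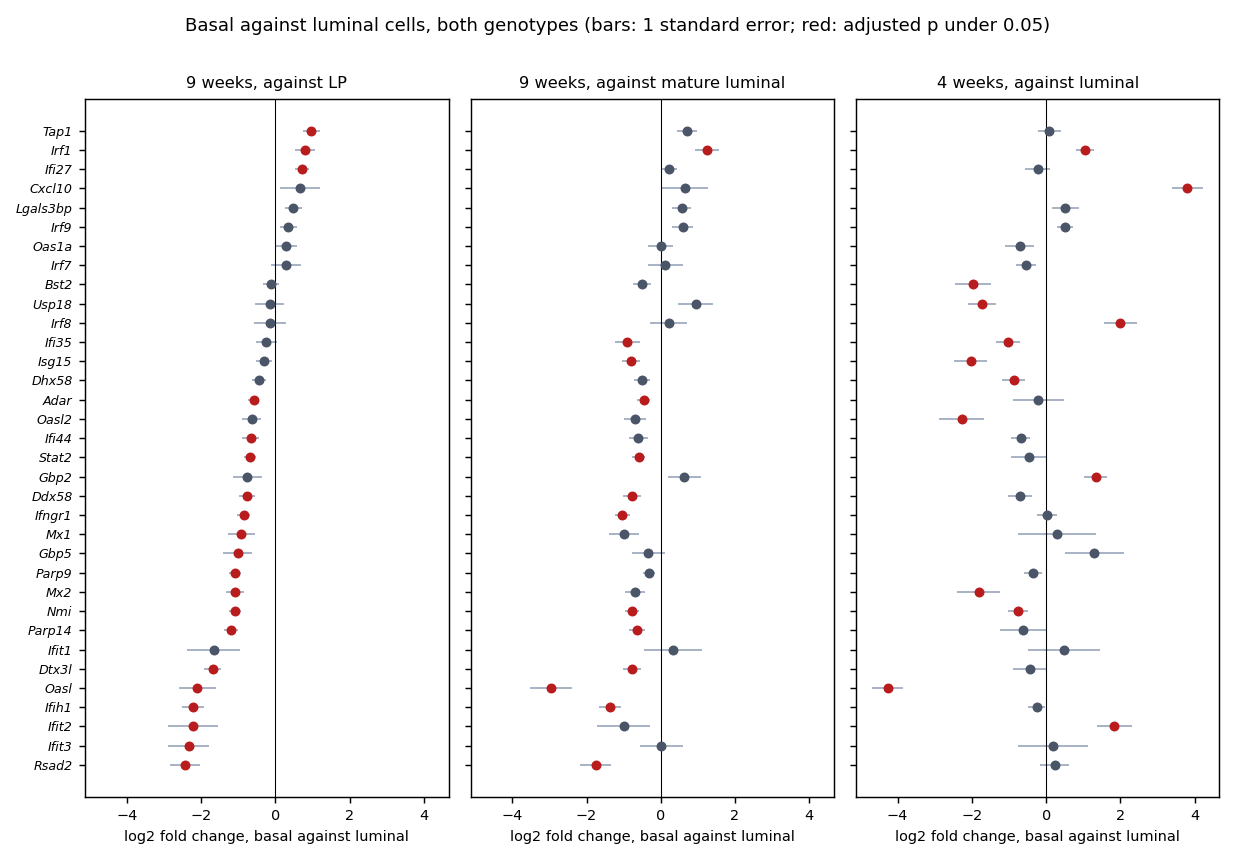
Log2 fold change of basal against luminal cells for the 34 members, averaged over genotypes, at 9 weeks against progenitors (left) and mature luminal cells (middle) and at 4 weeks against luminal cells (right), in the order of the left panel. Points are edgeR estimates, bars 1 SE, and red points have an adjusted p under 0.05. *Oasl* lies to the left in all 3 panels, and *Cxcl10* stands far to the right at 4 weeks, at 3.80.

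At 4 weeks the same question was put to basal and luminal cells as a whole. Basal cells had higher levels of *Cxcl10*, *Irf8*, *Ifit2*, *Gbp2* and *Irf1* (5 members, with 20.3% of all genes called higher) and lower levels of 9 members (14.8% called lower). *Cxcl10* was at 276, 93.9 and 141 normalized CPM in WT basal, 348 and 182 in KO basal, 11.1, 10.4 and 11.2 in WT luminal and 40.5, 12.02 and 11.3 in KO luminal libraries. Its log2 fold change was 3.80 (SE 0.42, adjusted p = 1.27e-05 by edgeR). *Oasl* was at 1.67, 1.39 and 1.31 in WT basal, 3.78 and 1.20 in KO basal, 43.4, 28.9 and 26.98 in WT luminal and 28.6, 63.9 and 27.1 in KO luminal libraries, a log2 fold change of -4.26 (SE 0.42, adjusted p = 5.02e-06 by edgeR). Neither gene overlapped between the cell types.

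The other lower members at 4 weeks were *Oasl2* (log2 fold change -2.28), *Isg15* (-2.03), *Bst2* (-1.98), *Mx2* (-1.82), *Usp18* (-1.72), *Ifi35* (-1.03), *Dhx58* (-0.87) and *Nmi* (-0.75). *Bst2* had 3.30, 4.06 and 1.94 normalized CPM in WT basal and 3.10, 20.9 and 12.4 in WT luminal cells, so that WT luminal 1 lay among the basal libraries. *Irf1* had 666, 356, 506, 552 and 491 in basal and 309, 205, 260, 336, 193 and 195 in luminal libraries, without overlap (log2 fold change 1.05, SE 0.25, adjusted p = 0.00541 by edgeR). In WT libraries alone 6 members were called in place of 14, and with the rat as a block 19. Fibroblast markers summed to 1149 to 7237 normalized CPM in the basal and 42.1 to 383 in the luminal libraries, and endothelial markers to 67.4 to 267 and 8.33 to 39.9. Myeloid markers, with *Cd14* among them, were at 65.9 to 98.0 and 610 to 1113. The part of these cells in the values was not tested.

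Between genotypes at 4 weeks, edgeR called 0 members in basal cells (0% of all genes, 0 by DESeq2) and 0 in luminal cells (0% of all genes, 0 by DESeq2). It gave an unadjusted p under 0.05 to 0 in basal cells (2.57% of all genes) and 1 in luminal cells (3.6%). That 1 was *Ifi27*, at 592, 463 and 493.4 normalized CPM in WT and 1590, 995 and 621 in KO luminal libraries (log2 fold change 1.05, SE 0.45, adjusted p = 0.854 by edgeR). In luminal cells *Ifi27*, *Cxcl10*, *Isg15* and *Nmi* had every KO library above every WT library, beside 5.7% of all genes. Without the TMM factor there were 2 above (*Ifi27* and *Nmi*, beside 5.51% of all genes) and 1 below (*Irf9*, beside 7.87%). Without the library labelled KO luminal 1, which had the highest *Ifi27*, *Cxcl10* and *Isg15* of the luminal libraries, 5 were above (7.61% of all genes) and 1 below (9.16%), and edgeR again called 0. *Isg15* had 9.51, 10.7 and 11.6 in WT and 38.03, 13.9 and 13.6 in KO luminal libraries. *Mx2*, called in both luminal populations at 9 weeks, had 3.05, 39.9 and 19.9 in WT and 8.34, 11.6 and 15.8 in KO luminal libraries, which overlap.

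At 6 weeks, *Cxcl10* alone was called between cell types. It was at 173, 102 and 236 normalized CPM in WT basal, 91.5 and 111 in KO basal, 19.5 and 6.73 in WT luminal, and 24.2 and 99.7 in KO luminal libraries (log2 fold change 2.20, SE 0.54, adjusted p = 0.0438 by edgeR). This was 1 member, with 3.49% of all genes called higher. Without the library labelled WT basal 3, 0 were called, without the library labelled KO luminal 2 it stayed 1, and without KO luminal 1 it was 5. It was 0 without WT basal 1, WT luminal 1, WT luminal 2, KO basal 1 or KO basal 2, and 2 without WT basal 2. With the rat as a block it was 0 as well.

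Between genotypes at 6 weeks, edgeR called 0 members in basal cells (0% of all genes, 1 by DESeq2) and 0 in luminal cells (0% of all genes, 5 by DESeq2). It gave an unadjusted p under 0.05 to 2 in basal cells (8.99% of all genes) and 6 in luminal cells (16.4%). Without the library labelled WT basal 3 it called 0 in basal cells, and without the library labelled KO luminal 2 it called 0 in luminal cells. The difference between the cell types was called for 0 (0% of all genes, 0 by DESeq2), with 1 at an unadjusted p under 0.05 by edgeR (7.42% of all genes). Without KO luminal 1, 6 were called in luminal cells, where the library labelled KO luminal 2 then stands alone for KO. *Ifit1*, which binds the 5′ end of viral RNA, had no count in the 5 WT libraries, which allows up to 0.197 to 0.393 normalized CPM (3 counts per library, counting error only), and 2.18 and 2.48 in KO basal, 8.46 in KO luminal 1 and 117 in the library labelled KO luminal 2. *Ifit3* had 0.851, 0 and 0.131 in WT basal, 1.97 and 4.25 in KO basal, 0 and 1.62 in WT luminal, and 18.7 and 201 in KO luminal libraries. *Isg15* had 10.5 and 15.2 in WT luminal, 13.6 in KO luminal 1 and 116 in the library labelled KO luminal 2. The highest value of each of these genes was thus in that library.

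The library labelled KO luminal 2 also had 8 members at 0 counts, the most of any library, among them *Oasl*, which the other luminal libraries of 6 weeks had at 7.71 to 53.9. It had 3869 normalized CPM of fibroblast markers and 1731 of endothelial markers, against at most 101 and 197 in the other luminal libraries of 6 weeks, and the highest leukocyte marker sum of the 48 libraries, 254, with *Cd53* at 118, *Laptm5* at 76.5 and *Ptprc* at 0. Its myeloid markers summed to 1825. Every KO library lay above every WT library for 18 members in luminal cells (23.2% of all genes) and below for 5 (26.5%), and in basal cells for 15 (26%) and below for 0 (14.8%). Without the library labelled KO luminal 2 the counts in luminal cells, with 1 KO library against 2, were 21 (41.2%) and 5 (33.5%), and without the library labelled WT basal 3 those in basal cells were 20 (34.7%) and 1 (25.8%). In basal cells, fibroblast markers summed to 72.1 to 547 in WT and 2182 to 3120 in KO, basal markers to 2900 to 4182 and 6617 to 8870, and endothelial markers to 43.7 to 92.4 and 99.3 to 148, all without overlap. The library labelled WT basal 3 had 7 members at 0, and leukocyte and lymphoid markers of 250.1 and 106 normalized CPM. The part of these cells in the values was not tested.

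Age could be compared within WT rats, where age and any batch cannot be told apart. In basal cells, *Irf1* was lower at 6 weeks, with 246, 81.4 and 177 normalized CPM against 666, 356 and 506 at 4 weeks (log2 fold change -1.52, SE 0.42, adjusted p = 0.0298 by edgeR, both ages fitted together). This was 1 member, and 5.68% of all genes were called lower. It was lost without WT 4-week basal 1, WT 4-week basal 3 or WT 6-week basal 2. The count was 4 without WT 6-week basal 2 and 3 without the library labelled WT basal 3. In luminal cells 0 were called by edgeR (3.1% of all genes, 7 at an unadjusted p under 0.05, as were 20.7% of all genes, and 2 by DESeq2), and 1 without WT 6-week luminal 2.

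In the E2 experiment, edgeR called 0 members for E2 in luminal cells (0% of all genes, 0 by DESeq2) and 0 in basal cells (0% of all genes, 1 by DESeq2). It gave an unadjusted p under 0.05 to 1 in luminal cells (3.66% of all genes) and 0 in basal cells (2.25%). It called 0 between ACI and BN in luminal cells (0% of all genes, 1 by DESeq2) and 0 in basal cells (0% of all genes, 1 by DESeq2). For strain, 0 had an unadjusted p under 0.05 by edgeR in luminal cells (3.89% of all genes) and 0 in basal cells (1.37%). The member with the lowest p for E2 in luminal cells was *Irf1*, at 618 and 592 normalized CPM in ACI Control, 280 and 395 in ACI E2, 1565 in BN Control and 303 in BN E2 libraries (log2 fold change -1.34, SE 0.40, unadjusted p = 0.008 in edgeR's fit). All 3 E2 libraries lay below all 3 Control libraries, and the share of all genes that did so was not counted. *Irf1* was named for having the lowest p of the members tested, and it was not called. *Irf1* in basal cells was at 889 and 1060 in ACI Control, 828.8 and 852 in ACI E2, 1217 in BN Control and 1088 in BN E2 libraries.

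*Oasl* was again lower in basal than in luminal cells, with 18.6, 20.4, 29.6, 4.91, 35.2 and 22.8 normalized CPM in basal and 410, 282, 290, 220, 1380 and 189 in luminal libraries (ACI Control 1 and 2, ACI E2 1 and 2, BN Control, BN E2). The log2 fold change was -4.23 (SE 0.60, adjusted p = 0.0281 by edgeR). This was 1 member, beside 0.322% of all genes called lower. The call was lost without ACI Control basal 2 or without any of the 4 BN libraries, and kept with the rat as a block. The library ACI E2 basal 1, with *Krt14* at 54.3 normalized CPM against 362 to 4334 in the other basal libraries of this experiment, held the highest *Ifit1* (297) and *Ifit3* (178), and without it the counts of the E2 and strain comparisons in basal cells and of this comparison stayed the same. *Oasl* was the member called lower in basal cells at 4 weeks, at 9 weeks against both luminal populations, and in this experiment.

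**Figure D5:**
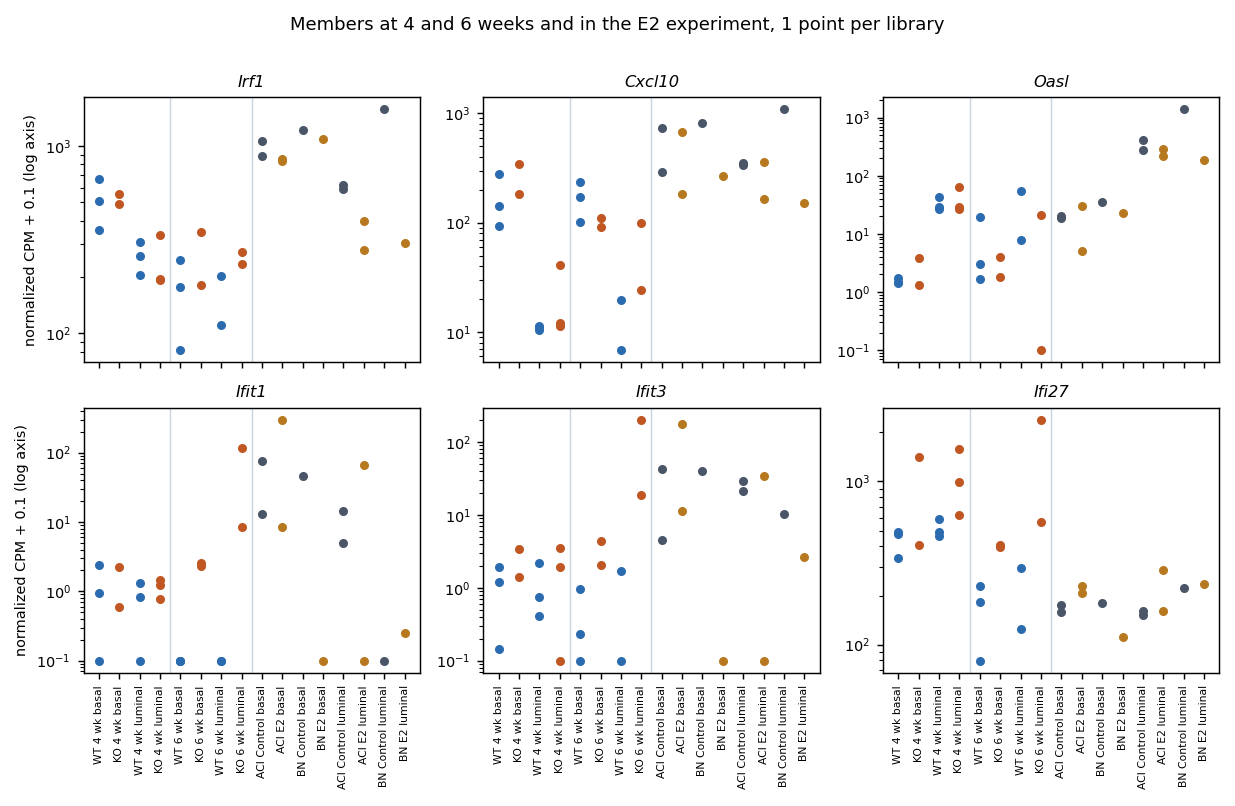
Normalized CPM (plus 0.1, log axis) of 6 members in the libraries of 4 weeks, 6 weeks and the E2 experiment, 1 point per library, with groups along the horizontal axis and vertical lines between experiments (blue WT, orange KO, grey Control, gold E2). *Cxcl10* is higher in basal than in luminal cells at 4 weeks, *Oasl* is higher in luminal cells at 4 weeks and in the E2 experiment, while at 6 weeks the library labelled KO luminal 2 is at 0 and WT luminal 1 (7.71) lies below the library labelled WT basal 3 (19.4), and KO luminal 2 has the highest point of 6 weeks for *Ifit1* (117), *Ifit3* (201) and *Ifi27* (2384).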

How the data were processed

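RNA of sorted cells was made into libraries with a low-input SMARTer v4 kit, which does not mark strand. The authors aligned single-end reads to the rn6 genome with STAR 2.5.1b and counted reads per gene with htseq-count, using refGene gene models. The deposited values are raw counts per gene. The strand setting is not given in the sources used here, so reads of a gene and an antisense partner cannot be told apart, and reads shared by near-identical family members (*Oasl* and *Oasl2*, the Ifit, Mx and Gbp genes) may be split. Lines for reads not assigned to a gene for any reason, 47.1% to 77.0% of the total of each file, were left out.

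Depth on genes was 21545344 to 33859550 at 9 weeks, 14674040 to 23045345 at 4 weeks, 7985619 to 16390460 at 6 weeks and 13659389 to 25280421 in the E2 experiment. A count of 0 allows up to 3 counts per library, which is 0.087 to 0.153, 0.117 to 0.225, 0.196 to 0.406 and 0.112 to 0.162 normalized CPM in that order, for counting error only. Groups were taken from the labels. For 9 weeks nothing states that a library is a separate animal, so p-values measure the spread between these libraries.

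Counts were tested with edgeR 4.0.16 (limma 3.58.1, R 4.3.3) by the quasi-likelihood test, with TMM factors, filterByExpr by group and Benjamini-Hochberg adjustment over all genes tested at a threshold of 0.05, with 1 fit per experiment. A further fit held the 4-week and 6-week libraries together, and another the 8 progenitor libraries alone for PNA+ against Cd49b+. Both gates of 1 genotype were joined as LP in the other comparisons. The fits were tested on counts simulated for 9 weeks. In LP, 29 of 100 genes changed by a log2 fold of 1 were called, and 88 of 100 changed by 2. In mature luminal cells these were 4 and 59 of 100. False calls were 6 of 123 calls in LP and 7 of 70 in mature luminal cells. A member not called can thus still have changed. The simulated libraries were drawn independently, without the deviations that same-numbered libraries of a genotype share. The shares called and the false calls in LP therefore need not hold for the measured libraries. Tables and promoter searches used Python 3.11.15. Alternatives were DESeq2 1.42.0, RLE factors, no filter, WT libraries only, each population alone, LP libraries summed, each library left out and a replicate block. Blocks crossed between genotypes or nested in genotype, PNA+ or Cd49b+ libraries only, and counts of members apart without libraries whose *Cdkn1b* level goes against the label, were chosen after seeing the data.

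Same-numbered libraries of 9 weeks were compared by the correlation, across genes, of their deviations from group means. Within a genotype r was 0.24 to 0.77 over 24 pairs, and between genotypes it was -0.35 to 0.01 over 32 pairs, so the numbers tie libraries within a genotype and pair nothing between genotypes. Basal and luminal libraries of 1 rat, by their labels, had r of 0.09 to 0.56 at 4 weeks, -0.01 to 0.10 at 6 weeks and 0.08 to 0.21 in the E2 experiment. None of 28 replicate pairs agreed within sampling noise.

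The members and the lists of pathway and marker genes were chosen with earlier results of these data known. The text names members past the threshold, up to 10 in each direction, and otherwise the 3 with the largest change in a direction. Some members were named because groups did not overlap, because they differed by library number within a genotype, or for a p under 0.05. These were chosen after their values were seen. Peak lists of chromatin binding were not used here, since they give positions on rn6 and no gene positions of that build were used.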

Additional observations from a re-analysis of the deposited data

Results flagged for a closer look

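In 4 cases 1 of the 4 progenitor libraries of a genotype lay far from the others by Dixon's test. In the KO progenitors the library Cd49b+ 2 was above the rest for *Irf7*, the transcription factor that amplifies interferon production, at 48.49 normalized CPM against 18.2 to 21.9. The same library had 26.12 for *Irf9* against 14.3 to 15.98, and 29.82 for *Gbp2* against 5.15 to 8.91. In the WT progenitors the library PNA+ 1 was below the rest for *Gbp2*, at 20.77 against 25.0 to 25.4. Chance alone gives this in about 1 of 20 groups, and 68 groups were tested. The library KO Cd49b+ 2 had 523.5 normalized CPM of *Krt14*, a basal keratin, against 85.1 to 227 in the other KO progenitors, and 16.1 of *Ifnk* against 1.60 to 3.34. The part of these differences in the values of the 3 genes was not tested. Without this library 8 members were called between genotypes in LP in place of 3.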

How the results depend on the processing

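Of 60 member values past the threshold, 1000 refits under all alternatives reversed 0, kept 818 past it and lost 182. For counts of members called, 186 of 246 refits stayed within 1.5 times the count reported. Counts of refits, here and beside the results, are given without the share of all genes called in the same refit. A higher or lower count is therefore not shown to be particular to the members. DESeq2 gave 7 in place of 3 between genotypes in LP, 6 in place of 1 in mature luminal cells, 4 in place of 1 between cell types at 6 weeks and in the E2 experiment, and 10 in place of 1 and 2 in place of 0 between ages in WT basal and luminal cells. In place of 0 it gave 1 for the difference between LP and basal cells, 1 and 5 between genotypes in basal and luminal cells at 6 weeks, 1 for E2 in basal cells, and 1 and 1 between strains. RLE factors gave 0 between cell types at 6 weeks and 2 between ages in basal cells.

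For genotype in LP, summing the libraries of a number gave 0, PNA+ or Cd49b+ libraries only 0 and 0, and LP alone 6. Mature luminal cells alone gave 0. In WT libraries only, 2 members were called between LP and mature luminal cells and 6 between cell types at 4 weeks. With the replicate block, 5 members were called for genotype in LP and 10 between LP and mature luminal cells. The block within genotype gave 17 there and 22 between basal and mature luminal cells. The numbers pair nothing between genotypes, and the crossed block gave 8 in LP and 2 in mature luminal cells. With the rat as a block 0 were called between cell types at 6 weeks. The block changed no other count by more than 1.5 times.

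Leaving out 1 library gave 1 to 8 members for genotype in LP, 0 in mature luminal cells and 0 to 6 in luminal cells at 6 weeks (6 without KO luminal 1). It gave 2 to 8 between LP and mature luminal cells (2 without KO mature luminal 2), 8 to 16 between basal and mature luminal cells (8 without WT basal 1), 16 to 22 between basal cells and LP, 11 to 14, 0 to 5 and 0 to 1 between cell types at 4 weeks, 6 weeks and in the E2 experiment, and 0 to 4 and 0 to 1 between ages in basal and luminal cells. The other comparisons refitted in this way stayed at 0, and the 3 differences of genotype effects were not refitted. The libraries are named beside the results. The cause of these changes was not tested. Depth was lowest at 6 weeks, where a count of 0 allows up to 0.406 normalized CPM.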
